A study of Mus musculus with 14 samples.

Results

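The 10 genes Cd28, Cd5, Cd6, Cd4, Cd8a, Cd8b1, Lck, Zap70, Prkcq and Plcg1 encode the T cell coreceptors, the co-stimulatory and modulating receptors beside them, and the first enzymes of signalling from the T cell receptor (TCR). They were taken by name, and their probes were found through the RefSeq accession that the scanner files give for each probe. All 10 genes were found, with 15 of the 55681 probes on the array, against 20972 named genes in all. Each gene passed the filter on dim probes and was represented by its brightest probe among the 14239 named genes tested.

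The series holds 14 one-colour Agilent arrays of mouse thymic cells that were sorted as CD4-CD8-. Bone marrow of Ezh2flox/flox;p53flox/flox;Cre-ERT2 (double-deleted), Ezh2flox/flox;Cre-ERT2 (Ezh2-deleted), p53flox/flox;Cre-ERT2 (p53-deleted) and Cre-ERT2 (WT) mice was given to lethally irradiated CD45.1+ recipients, so that all 4 genotypes carried the tamoxifen-dependent Cre, and the strain label was C57BL/6. The floxed genes were deleted at week 4 after the transplant. At month 3 the preleukemic and WT thymi gave DN1 cells, which are CD44+CD25-, DN2 cells, which are CD44+CD25+, and DN3 cells, which are CD44-CD25+. Each genotype and stage had 1 array. A further 2 arrays held leukemic cells in the DN2 gate from 2 double-deleted mice, numbers 13 and 19, that had developed ETP-ALL, an early T cell precursor leukemia, for which no sorting time is labelled. The sources used here do not state ages or how many mice an array pooled, and the Cre acts in every donor cell type rather than in T cells alone.

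CD4 and CD8 are the coreceptors that bind MHC molecules beside the TCR, and they bring the kinase LCK to the CD3 chains. LCK phosphorylates these chains, ZAP-70 docks on them and starts a cascade in which phospholipase C gamma 1 makes the second messengers that raise calcium and activate protein kinase C theta, the product of Prkcq. CD28 is the main co-stimulatory receptor, whereas CD5 and CD6 are related scavenger-receptor proteins that tune TCR signals. Cells of the DN stages are gated as lacking surface CD4 and CD8, and the pre-TCR first signals at DN3. Natural killer (NK) cells also express several of these enzymes.

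The level of a probe is given below as log2 of its processed signal over the 75th percentile of its array. Levels of different probes cannot be ranked against each other, so each gene is compared with itself across arrays. Slide 2, which held the 6 arrays of Ezh2-deleted and p53-deleted cells, was dim, with a 75th percentile signal of 61.3 to 123, against 271 to 524 on the other 8 arrays. Slide 1 held the 3 WT arrays with the double-deleted DN2 and DN3 arrays, slide 3 the double-deleted DN1 array and slide 4 the leukemias. The Trp53 probe (the p53 gene) read, from DN1 to DN3, -3.88, -2.40 and -0.92 in double-deleted cells, -3.50, -5.36 and -4.88 in p53-deleted cells, 0.68, 1.68 and 1.24 in Ezh2-deleted cells and 0.11, 1.03 and 1.28 in WT cells, and it read -5.86 and -3.85 in the leukemias. It was well above background on the double-deleted DN2 and DN3 arrays, though below WT there, and not on the double-deleted DN1, p53-deleted and leukemia arrays. The Ezh2 probe did not separate the genotypes, with 3.83, 4.32 and 4.01 in double-deleted, 2.78, 3.89 and 3.72 in Ezh2-deleted, 3.61, 3.36 and 3.84 in p53-deleted and 2.36, 4.16 and 4.43 in WT cells, and 2.74 and 3.62 in the leukemias. The sources used here do not say whether that probe lies in the deleted part, so the Ezh2 genotype rests on the labels. Il2ra, which encodes CD25, was between 0.52 and 2.59 on the DN1 arrays and between 5.38 and 7.74 on the other 10. Cd44 was low at DN3, at -2.01 to -0.41. Of 17 NK and innate lymphoid markers, 17 were well above background on each DN1 array, 5 to 15 on the DN2 arrays (15 in p53-deleted cells) and 4 or 5 on the DN3 arrays.

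Promoter windows from 250 bases before to 50 after a RefSeq start (GRCm38.p6) were given for 6 of the 10 genes, in 9 windows. The 5 below belong to Cd5, Prkcq, Cd8a and Lck. Cd5 and Prkcq were lower at DN2 and DN3 than at DN1. By its brighter probe, Cd8a was called lower at DN3 than at DN1 and lower without Ezh2. Its second probe was called in neither comparison. Lck, shown with its 2 annotated starts, kept a high signal on its own probe throughout. Capitals mark letters of 5 motifs, searched on both strands. The RUNX motif was TGTGGT, for the RUNX factors of T cells. The motif of the ETS family was AGGAAG, a common core. An E-box, read by E proteins such as E2A, was searched as CAGGTG here. For the factors TCF1 and LEF1 the letters were CTTTGA on either strand. For GATA3 they were AGATAA on either strand. No matches overlapped.
Cd5 (chr19:10738925-10739224, minus strand): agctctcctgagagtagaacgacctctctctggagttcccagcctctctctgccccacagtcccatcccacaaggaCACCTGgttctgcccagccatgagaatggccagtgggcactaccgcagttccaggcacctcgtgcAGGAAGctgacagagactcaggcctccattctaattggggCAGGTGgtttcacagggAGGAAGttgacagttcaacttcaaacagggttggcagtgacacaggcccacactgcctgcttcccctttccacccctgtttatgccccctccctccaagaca
Prkcq (chr2:11172132-11172431, plus strand): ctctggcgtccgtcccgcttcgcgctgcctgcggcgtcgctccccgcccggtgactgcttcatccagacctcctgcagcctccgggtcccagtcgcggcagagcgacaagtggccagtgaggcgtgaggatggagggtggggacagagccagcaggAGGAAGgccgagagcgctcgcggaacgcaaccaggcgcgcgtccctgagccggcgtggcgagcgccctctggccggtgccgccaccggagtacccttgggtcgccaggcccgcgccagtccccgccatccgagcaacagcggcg
Cd8a (chr6:71373177-71373476, plus strand): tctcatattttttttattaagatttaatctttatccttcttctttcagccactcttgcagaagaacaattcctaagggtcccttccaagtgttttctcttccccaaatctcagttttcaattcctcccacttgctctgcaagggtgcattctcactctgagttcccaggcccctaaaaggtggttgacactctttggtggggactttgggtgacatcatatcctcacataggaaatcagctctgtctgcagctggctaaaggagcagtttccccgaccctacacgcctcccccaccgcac
Lck, upstream start (chr4:129573592-129573891, minus strand): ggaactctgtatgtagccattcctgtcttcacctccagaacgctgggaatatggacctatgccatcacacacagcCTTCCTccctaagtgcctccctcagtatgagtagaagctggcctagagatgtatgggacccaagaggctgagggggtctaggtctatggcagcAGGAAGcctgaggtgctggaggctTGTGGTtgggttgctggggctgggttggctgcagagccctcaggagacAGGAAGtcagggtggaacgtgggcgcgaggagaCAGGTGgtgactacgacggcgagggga
Lck, downstream start (chr4:129558323-129558622, minus strand): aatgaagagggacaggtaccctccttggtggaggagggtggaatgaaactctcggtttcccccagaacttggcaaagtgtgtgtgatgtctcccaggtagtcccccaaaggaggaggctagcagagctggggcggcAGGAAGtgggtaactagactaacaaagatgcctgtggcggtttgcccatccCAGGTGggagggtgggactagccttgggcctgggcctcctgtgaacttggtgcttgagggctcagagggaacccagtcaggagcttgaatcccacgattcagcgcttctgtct
These motifs were common among the 32851 promoter windows of the table, at 16.8% for RUNX, 35.4% for ETS, 20.2% for E-box, 16.0% for TCF/LEF and 11.2% for GATA. The Cd5 window held 2 ETS and 2 E-box matches, and the Prkcq window held 1 ETS match. The upstream Lck window held 1 RUNX, 3 ETS and 1 E-box match, the downstream one held 1 ETS and 1 E-box match, and none of these letters was in the Cd8a window. CpG pairs numbered 37 in the Prkcq window and 3 in each of the Cd5 and Cd8a windows, against a median of 7.0 over all windows. A match is a description of the letters and was not set against binding.

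**Figure D1:**
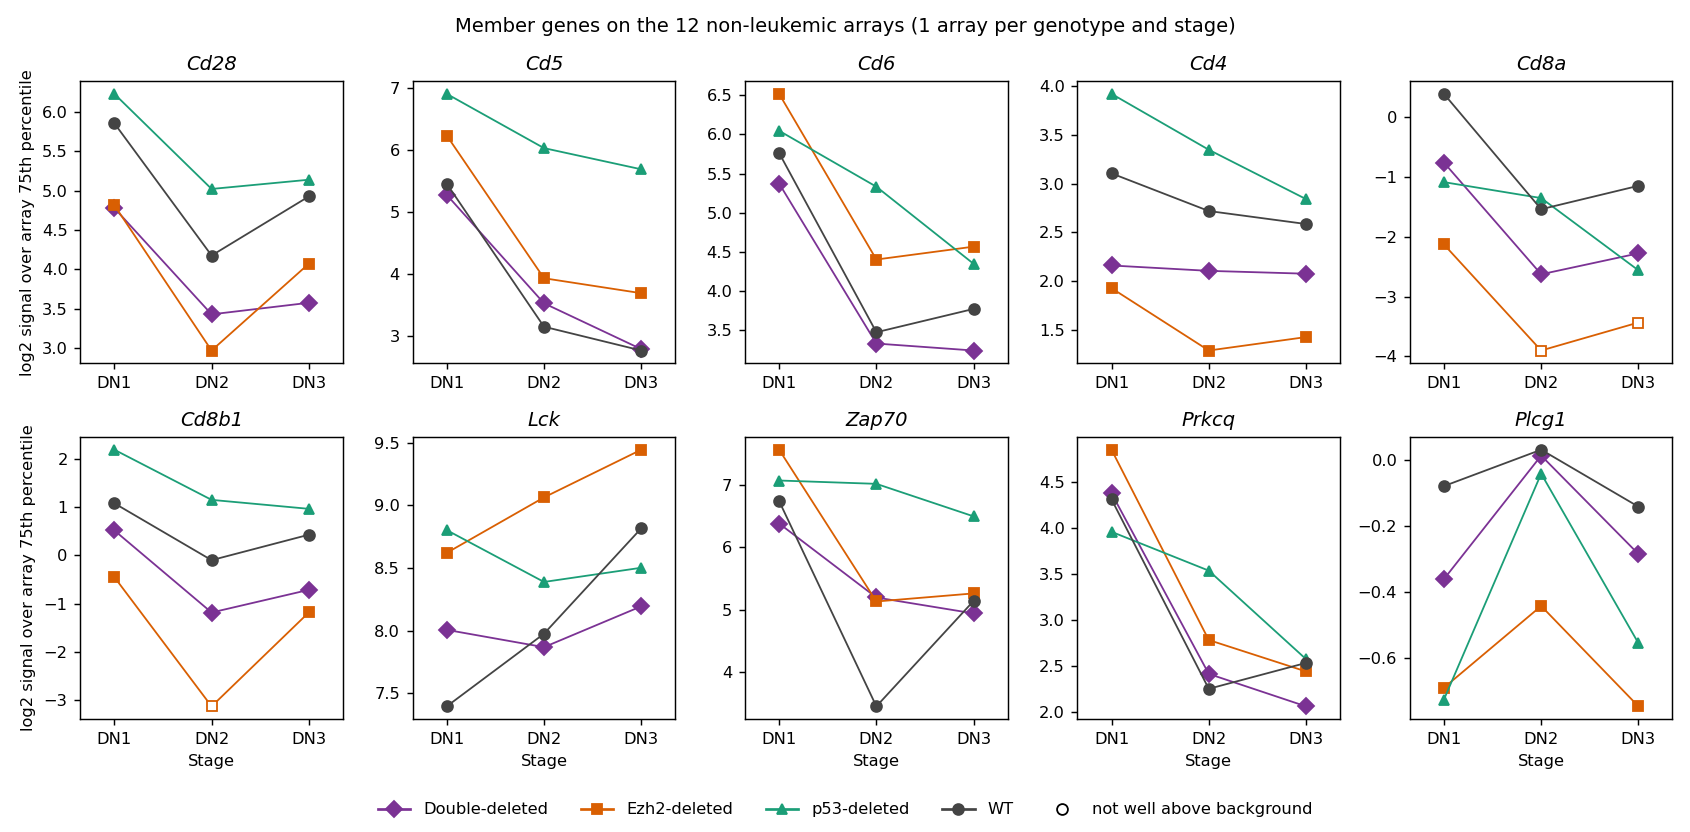
Level of each member (log2 of signal over the array's 75th percentile; the y axis differs between panels) at DN1, DN2 and DN3, with 1 array per point and a line per genotype; open symbols were not well above background. Every member but Lck and Plcg1 is highest at DN1 in each genotype, and the lines of Cd4 are ordered by genotype at every stage.

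The first question was how these genes change from DN1 to DN2, when thymic cells gain CD25. The modulating receptors Cd5 and Cd6, the co-stimulatory receptor Cd28, the CD8 beta chain gene Cd8b1 and the kinase gene Prkcq were lower at DN2. Cd4, Lck and Plcg1 did not pass the test. Thus 5 of 10 members fell and none rose, against 1.4% of the 27052 features called in this comparison in either direction and 1.21% called lower. The members' median difference was -1.58, against 0.14 over all features.

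Cd6 read 5.37 in double-deleted, 6.52 in Ezh2-deleted, 6.05 in p53-deleted and 5.76 in WT DN1 cells. At DN2 the same 4 genotypes read 3.33, 4.40, 5.33 and 3.47, and at DN3 they read 3.24, 4.56, 4.35 and 3.77. Every DN2 and DN3 array was below every DN1 array, and the DN2 against DN1 difference was -1.79 ± 0.27 (SE, 4 arrays a stage; limma adjusted p = 0.0154), or 3.47-fold. A second Cd6 probe gave -1.78 (limma adjusted p = 0.0128).

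Cd5, whose level on mature T cells follows the strength of TCR signals, read 5.27, 6.23, 6.90 and 5.45 at DN1 in double-deleted, Ezh2-deleted, p53-deleted and WT cells. At DN2 it read 3.53, 3.93, 6.02 and 3.15, and at DN3 2.79, 3.69, 5.68 and 2.77. The stages overlapped because p53-deleted DN2 and DN3 cells stayed above the DN1 level of the double-deleted and WT cells. Across genotypes the DN2 difference was -1.80 ± 0.28 (limma adjusted p = 0.0162), and at DN3 it was -2.23 ± 0.28 against DN1 (limma adjusted p = 0.00286), 4.69-fold.

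Prkcq, the protein kinase that links the TCR to NF-kappa-B, read 4.38, 4.85, 3.96 and 4.31 at DN1 in double-deleted, Ezh2-deleted, p53-deleted and WT cells. At DN2 the values were 2.41, 2.78, 3.54 and 2.25, and at DN3 they were 2.06, 2.44, 2.57 and 2.53. As for Cd6, neither later stage overlapped DN1, which makes 2 of 10 members, against 1.34% of features that were lower on all DN2 and DN3 arrays than on all DN1 arrays. The difference was -1.63 ± 0.30 at DN2 (limma adjusted p = 0.0344) and -1.97 ± 0.30 at DN3 (limma adjusted p = 0.00634).

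Cd28 read 4.78, 4.81, 6.23 and 5.86 at DN1, 3.43, 2.97, 5.02 and 4.17 at DN2 and 3.57, 4.07, 5.14 and 4.93 at DN3 in double-deleted, Ezh2-deleted, p53-deleted and WT cells. Each genotype was lower at DN2 than at DN1, by 1.21 to 1.85 on the log2 scale, while genotypes differed enough for the stages to overlap. The DN2 difference was -1.52 ± 0.21 (limma adjusted p = 0.00944), and the DN3 difference against DN1 was -0.99 ± 0.21 (limma adjusted p = 0.0249). Cd8b1 read 0.52, -0.45, 2.19 and 1.08 at DN1, and -1.19, -3.13, 1.15 and -0.10 at DN2, where the Ezh2-deleted array was not well above background. Its DN2 difference was -1.65 ± 0.32 (limma adjusted p = 0.0490).

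Zap70, the kinase that binds phosphorylated CD3 chains, read 6.38, 7.57, 7.07 and 6.74 at DN1 in double-deleted, Ezh2-deleted, p53-deleted and WT cells. Its DN2 values were 5.19, 5.13, 7.02 and 3.45, the widest spread of any stage for this gene. The p53-deleted array was almost level with its DN1 counterpart, while the WT array was 3.29 lower on the log2 scale. The fitted difference of -1.74 ± 0.47 did not pass the test (limma adjusted p = 0.124). A second Zap70 probe gave -1.71 (limma adjusted p = 0.133).

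The gene of the first TCR kinase, Lck, read 8.01, 8.62, 8.80 and 7.40 at DN1, 7.87, 9.06, 8.39 and 7.98 at DN2 and 8.19, 9.45, 8.50 and 8.82 at DN3 in double-deleted, Ezh2-deleted, p53-deleted and WT cells. The stages overlapped, with a DN2 difference of 0.12 ± 0.27 (limma adjusted p = 0.828). Plcg1 lay between -0.75 and 0.03 on all 12 non-leukemic arrays and Cd4 between 1.29 and 3.92, with DN2 differences of 0.35 ± 0.17 (limma adjusted p = 0.281) and -0.41 ± 0.20 (limma adjusted p = 0.289). The brighter Cd8a probe read -0.76, -2.13, -1.09 and 0.38 at DN1 and -2.63, -3.90, -1.36 and -1.54 at DN2, of which the Ezh2-deleted DN2 value was not well above background. Its DN2 difference of -1.46 ± 0.31 did not pass the test (limma adjusted p = 0.0649).

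**Figure D2:**
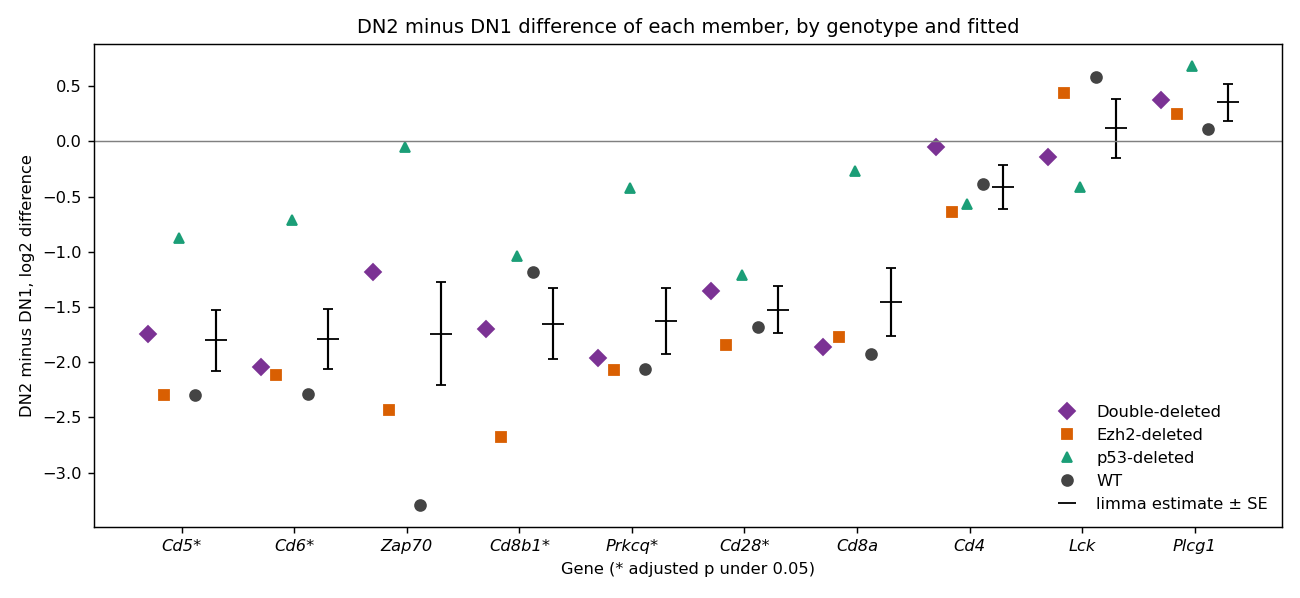
DN2 minus DN1 difference of each member (y axis, log2 difference) within each genotype (coloured symbols, 1 array against 1) and as fitted over the 4 genotypes (black bar, limma estimate ± SE). The fitted bars of Cd5, Cd6, Cd8b1, Prkcq and Cd28 lie between -1.80 and -1.52 and pass the test. For these genes, Zap70 and Cd8a the p53-deleted symbol is the one nearest to 0.

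The step differed in size between genotypes without passing a test of that difference. That test called 0 of 27052 features for p53 status and 0 for Ezh2 status. Its added terms left fewer residual degrees of freedom than the additive fit, so it cannot show that the steps were alike. The median DN2 minus DN1 difference of the 10 members was -1.53 in double-deleted, -1.96 in Ezh2-deleted, -0.50 in p53-deleted and -1.80 in WT cells. For Cd5, the step was 0.99 ± 0.51 smaller in the 2 genotypes labelled as lacking p53 than in the other 2 (limma adjusted p = 0.578). Zap70 had the largest difference by p53 status, 2.24 ± 0.64, and the lowest p of the members (limma adjusted p = 0.496). For Ezh2 status the lowest limma adjusted p among the members was 0.971. Markers of other cell types moved with the step. Over the 17 NK and innate lymphoid markers, 11 fell between DN1 and DN2, and their summed level relative to the array's 75th percentile was 676 to 1346 on DN1 arrays, 135 to 665 on DN2 arrays and 248 to 684 on DN3 arrays. Of 8 B cell markers 4 fell, with a list median of -2.87. None of 10 dendritic and 11 gamma delta T cell markers was called by limma, and their medians were -1.88 and -1.28. Of 14 markers of double-positive (CD4+CD8+) and mature thymocytes 1 fell, 9 were lower and 5 higher, with a median of -0.97. Their summed level was 372 to 552 on DN1 arrays and 203 to 320 on DN3 arrays. At DN2 it was 536 in p53-deleted cells, against 202 to 274 on the other arrays. The p53-deleted DN2 array had 10 of 10 dendritic and 11 of 11 gamma delta markers well above background, against 7 to 9 and 8 to 10 on the other DN2 arrays. The defining markers Ncr1 and Klrd1 were well above background on the p53-deleted DN2 array and not on the WT and double-deleted DN2 arrays. The summed NK level of the p53-deleted DN2 array was 203, against 135 in WT, 252 in double-deleted and 665 in Ezh2-deleted DN2 cells. Its median log2 level of NK markers was -0.95, against -4.36, -3.75 and -2.05 in the same order. In bulk samples, fewer cells of a type and less RNA per cell cannot be told apart, and the part of these cells in the stage step was not tested.

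Between DN2 and DN3, 0.0222% of features were called, and none of the 10 members was, by limma. Of the members, 1 had an unadjusted p under 0.05, and it was Cd28, with a difference of 0.53 ± 0.21 (limma adjusted p = 0.712). Between DN1 and DN3, Cd5, Cd6, Prkcq, Cd28 and Cd8a fell, which is 5 of 10 against 7.71% of features called in either direction and 5.14% called lower. Cd8a read -2.28, -3.43, -2.56 and -1.15 at DN3 in double-deleted, Ezh2-deleted, p53-deleted and WT cells, of which the Ezh2-deleted value was not well above background. Its difference against DN1 was -1.46 ± 0.31 (limma adjusted p = 0.0261), and its second, dimmer probe gave -1.11 (limma adjusted p = 0.0640). Cd5, Cd6 and Prkcq were called in each of 12 fits that left out 1 array, while the Cd28 call was lost in 6 and the Cd8a call in 7. With the slide as a block 3 members were called, within slide 1 Cd5 alone and within slide 2 none. Fewer features of any kind were called in these fits too, as given in the closing section.

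The members' stage calls at DN2 depended on single arrays. Without the WT DN2 array, 0 of the 10 were called, and without the p53-deleted DN2 array 7 were. The count over all features also moved widely between such fits, as given in the closing section. These member counts are therefore not particular to the members. Over the 12 fits that left out 1 array, the call was lost in 10 for Prkcq and Cd8b1, in 6 for Cd5 and Cd6 and in 1 for Cd28. With the slide as a block 1 was called, and within slide 1 or within slide 2 none was, in fits whose feature counts are also given there. The differences kept their direction in those fits, as with Cd6 at -2.19 within slide 1 and -1.42 within slide 2.

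Other genes of the pathway were read from lists of related genes. Of 26 TCR signalling adaptors and enzymes tested, 3 fell at DN2 and none rose. They were Txk (-3.39, limma adjusted p = 0.0439), a TEC family kinase, Rasgrp1 (-1.58, limma adjusted p = 0.0123), which activates RAS downstream of phospholipase C, and Malt1 (-1.42, limma adjusted p = 0.0395), a protease of NF-kappa-B signalling downstream of protein kinase C theta. By DN3, 9 of the 26 had fallen against DN1, among them Nfatc2 (-1.78) and Fyn (-1.57), the second SRC family kinase of T cells. Of 15 other co-stimulatory and co-inhibitory receptors, 1 fell at DN2, Pdcd1 (-2.26), and 8 fell by DN3, including Icos (-5.23), Cd226 (-5.09) and Cd2 (-3.46). Of 12 fits that left out 1 array, the DN2 calls of Txk, Malt1 and Pdcd1 were lost in 10 and that of Rasgrp1 in 3. The DN3 calls were lost in 8 for Icos and Cd2, in 6 for Nfatc2 and Fyn and in 3 for Cd226. The list medians at DN2 were -0.41 for the adaptors and enzymes and -1.20 for the receptors, against 0.14 over all features. Of the 5 CD3 and pre-TCR chains, Ptcra alone was called at DN3 against DN1, and it rose by 6.07 on the log2 scale (limma adjusted p = 0.00252).

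The second question was what the loss of Ezh2, the methyltransferase of Polycomb repressive complex 2, does to these genes. The coreceptor genes Cd4, Cd8a and Cd8b1 and the co-stimulatory receptor gene Cd28 were lower in the genotypes labelled as lacking Ezh2. The enzymes Lck, Zap70, Prkcq and Plcg1 and the receptor Cd6 did not pass the test. This comparison averaged the Ezh2-deleted against p53-deleted difference, which lies within slide 2, and the double-deleted against WT difference, and it was added after the values had been seen. It called 4 of 10 members lower and none higher, against 3.94% of features called in either direction and 1.21% called lower.

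From DN1 to DN3, Cd4 read 2.16, 2.11 and 2.08 in double-deleted and 1.93, 1.29 and 1.43 in Ezh2-deleted cells. It read 3.92, 3.35 and 2.84 in p53-deleted and 3.10, 2.72 and 2.59 in WT cells. The 6 arrays without Ezh2 therefore lay between 1.29 and 2.16 and did not overlap the 6 with Ezh2, which lay between 2.59 and 3.92. Cd4 was the 1 member of 10 for which these groups did not overlap, against 0.333% of features lower on all 6 arrays without Ezh2 than on all 6 with it. Its mean was 1.83 ± 0.38 without Ezh2 and 3.09 ± 0.49 with Ezh2 (SD, n = 6 each), a difference of -1.25 ± 0.16 (SE; limma adjusted p = 0.00451), 2.38-fold. The second Cd4 probe, well above background on 5 of 14 arrays, gave -1.37 (limma adjusted p = 0.00855).

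Cd8b1 averaged -1.03 ± 1.21 without Ezh2 and 0.95 ± 0.77 with it (SD, n = 6 each). The DN1, DN2 and DN3 values were 0.52, -1.19 and -0.72 in double-deleted and -0.45, -3.13 and -1.18 in Ezh2-deleted cells. They were 2.19, 1.15 and 0.96 in p53-deleted and 1.08, -0.10 and 0.43 in WT cells. At each stage both arrays without Ezh2 were below both arrays with it, and the difference was -1.98 ± 0.26 (limma adjusted p = 0.00477), 3.94-fold. Cd28 averaged 3.94 ± 0.75 without Ezh2 and 5.22 ± 0.73 with it, and its difference was -1.29 ± 0.17 (limma adjusted p = 0.00461), 2.44-fold.

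Cd8a was the weakest of these calls. The brighter probe averaged -2.52 without Ezh2, with a range of -3.90 to -0.76, and -1.22 with it, with a range of -2.56 to 0.38 (n = 6 each). It was well above background on 4 and 6 of these arrays and differed by -1.30 ± 0.25 (limma adjusted p = 0.0253). The second Cd8a probe differed by -0.16 (limma adjusted p = 0.761), so that the call rests on 1 of the 2 probes. It was also lost with the slide as a block (limma adjusted p = 0.0586) and in 7 of the 12 fits that left out 1 array, where the difference ranged from -1.44 to -1.04. With normexp background correction Cd8a differed by -0.55 (limma adjusted p = 0.119), and Cd8b1 by -1.25 with its call kept. Cd28, Cd4 and Cd8b1 were called in each of those 12 fits and with the slide as a block.

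**Figure D3:**
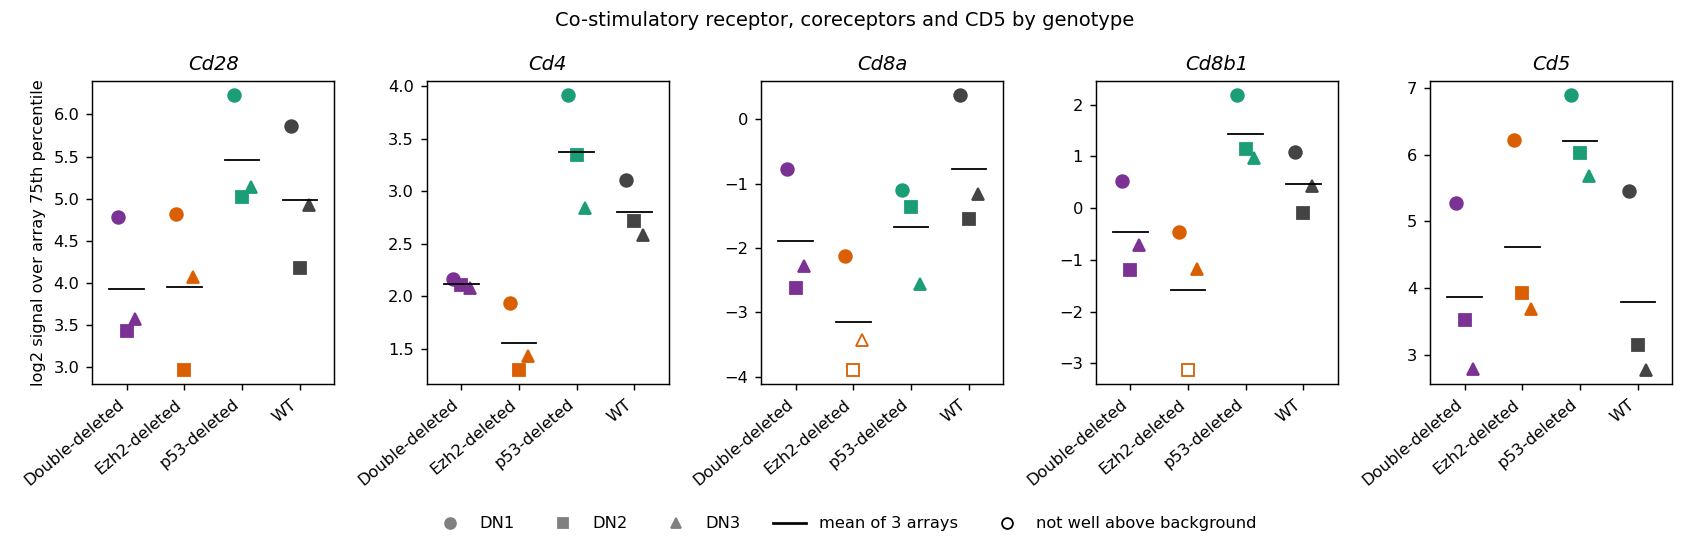
Level of Cd28, Cd4, Cd8a, Cd8b1 and Cd5 (log2 of signal over the array's 75th percentile; the y axis differs between panels) by genotype, with 1 symbol per array, its shape giving the stage, and a line at the mean of 3 arrays. The double-deleted and Ezh2-deleted values of Cd4, 1.29 to 2.16, lie below the p53-deleted and WT values, 2.59 to 3.92; the p53-deleted values of Cd5, 5.68 to 6.90, lie above the other DN2 and DN3 values.

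Lck differed by 0.22 ± 0.22 between cells without and with Ezh2 (limma adjusted p = 0.615), Zap70 by -0.24 ± 0.38 (limma adjusted p = 0.759), Prkcq by -0.04 ± 0.24 (limma adjusted p = 0.944) and Plcg1 by -0.17 ± 0.14 (limma adjusted p = 0.539). Cd5 differed by -0.76 ± 0.23 (limma adjusted p = 0.111) and Cd6 by -0.22 ± 0.22 (limma adjusted p = 0.620). These 6 values did not pass the test, and their errors leave room for differences of some size. The members' median was -0.50, against -0.03 over all features.

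The pair of contrasts behind the average were of unequal size. Both also differ in p53 status, in opposite directions. Their inequality is therefore the same quantity as the p53 difference given under the third question, and neither contrast measures Ezh2 status alone. In Ezh2-deleted against p53-deleted cells, whose arrays share slide 2, the fit of all 12 arrays gave values for each gene. Cd8b1 differed by -3.02 ± 0.37 (limma adjusted p = 0.00459), Cd4 by -1.82 ± 0.23 (limma adjusted p = 0.00523), Cd5 by -1.59 ± 0.32 (limma adjusted p = 0.0306) and Cd28 by -1.51 ± 0.24 (limma adjusted p = 0.0123). These 4 of 10 members fell, against 3.98% of features called in either direction and 1.71% called lower. In a fit of the 6 slide 2 arrays alone the differences were the same and none of the 4 was called, with limma adjusted p of 0.0865 for Cd8b1, 0.0954 for Cd4, 0.142 for Cd28 and 0.178 for Cd5. The Cd5 call was also lost in 8 of 12 fits that left out 1 array. Cd5 in this contrast compares p53-deleted cells, in which it was high, with 3.69 to 6.23 in Ezh2-deleted and 5.68 to 6.90 in p53-deleted cells. In double-deleted against WT cells Cd28 fell by 1.06 on the log2 scale (SE 0.24; limma adjusted p = 0.0365), which is 1 of 10 members against 7.2% of features called and 3.48% called lower. Cd8a (-1.12 ± 0.36), Cd8b1 (-0.93 ± 0.37) and Cd4 (-0.69 ± 0.23) had limma adjusted p of 0.0885, 0.151 and 0.102. The Cd28 call was lost in 7 of 12 fits that left out 1 array, with the slide as a block and within slide 1.

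Ezh2-deleted and WT cells were on different slides, and slide and genotype cannot be told apart there. In that contrast 35.3% of features were called, 17.5% higher and 17.8% lower, and of the members Cd8a (-2.38 ± 0.36), Cd8b1 (-2.06 ± 0.37), Cd4 (-1.25 ± 0.23) and Cd28 (-1.04 ± 0.24) fell and Lck (0.98 ± 0.31) rose. Of the 5 CD3 and pre-TCR chains 4 rose in it, among them Cd3e (1.81, limma adjusted p = 0.00190), and of 19 known regulators of Cd4 and Cd8 10 rose. In the 12-array fit, Ezh2-deleted against p53-deleted cells showed 1 called gene among these regulators, Bcl11b (1.05, limma adjusted p = 0.0429), a zinc finger factor of T cell commitment. Among kinase and lipase paralogues of the members, Syk (1.64, limma adjusted p = 0.0325), the relative of Zap70, and Plcg2 (2.75, limma adjusted p = 0.0409), the relative of Plcg1, rose in it. These 3 calls were lost in the fit of slide 2 alone, with limma adjusted p of 0.198, 0.108 and 0.0961.

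The third question concerned the loss of p53. Averaged over Ezh2 status, in a comparison also added after the values had been seen, Cd8b1 rose, which is 1 of 10 members against 7.91% of features called in either direction and 3.12% called higher. It averaged 0.49 ± 1.25 in the genotypes labelled as lacking p53 and -0.56 ± 1.48 in the others (SD, n = 6 each), a difference of 1.05 ± 0.26 (limma adjusted p = 0.0466). The groups overlapped, and the call was lost in 11 of 12 fits that left out 1 array. Cd5 (0.83 ± 0.23, limma adjusted p = 0.0588), Cd4 (0.56 ± 0.16, limma adjusted p = 0.0702) and Zap70 (0.64 ± 0.38, limma adjusted p = 0.329) did not pass the test.

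In p53-deleted against WT cells, which again lay on different slides so that slide and genotype cannot be told apart, 36.5% of features were called, 16.7% higher. Cd5 (2.41 ± 0.32, limma adjusted p = 0.000585), Zap70 (1.75 ± 0.54, limma adjusted p = 0.0327) and Cd6 (0.91 ± 0.31, limma adjusted p = 0.0491) rose, and no member fell. The Cd6 and Zap70 calls were lost with the percentile over detected probes (limma adjusted p = 0.0965 and 0.0594) and without the filter on dim probes (0.0762 and 0.0525), and in 11 and 3 of 12 fits that left out 1 array, while the Cd5 call was kept in them. The second probes of Zap70 and Cd6 gave 1.57 (limma adjusted p = 0.0530) and 0.57 (limma adjusted p = 0.167). Double-deleted cells, in which Trp53 signal remained at DN2 and DN3, had a Cd5 difference from WT of 0.07 ± 0.32 (limma adjusted p = 0.903). On the p53-deleted DN2 array Cd5 was 6.02 and Zap70 7.02. Its summed NK marker level was 203, against 135 in WT, 252 in double-deleted and 665 in Ezh2-deleted DN2 cells. On it 15 of 17 NK markers were well above background, against 5 on the WT and 9 on each of the other DN2 arrays. The p53-deleted DN3 array had 5 of 17, and it had Cd5 at 5.68 and Zap70 at 6.50, both above the other DN3 arrays. Its summed level of double-positive and mature thymocyte markers was 320, against 203 to 268 on the other DN3 arrays. Its summed B cell, dendritic and gamma delta T cell levels were the lowest of the DN3 arrays. The part of other cell types in the Cd5 and Zap70 levels was not tested.

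**Figure D4:**
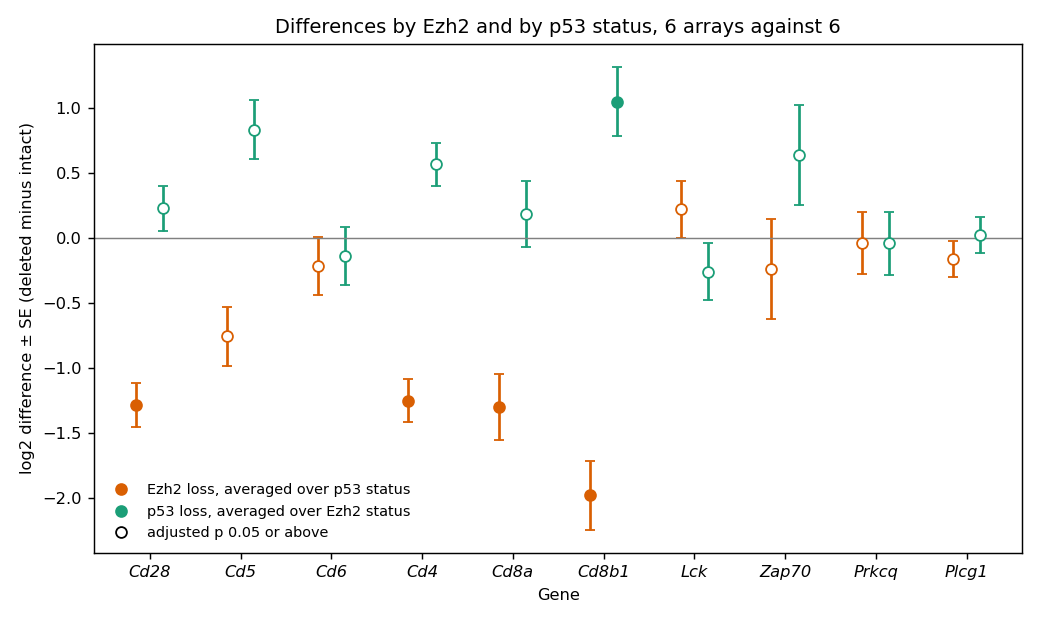
Difference of each member by Ezh2 status (orange) and by p53 status (green) on the 12 non-leukemic arrays, as limma estimate ± SE of deleted minus intact on the log2 scale; filled points have an adjusted p under 0.05. Cd28, Cd4, Cd8a and Cd8b1 lie between -1.98 and -1.25 for Ezh2 loss, and Cd8b1 lies at 1.05 for p53 loss.

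The fourth question was how the members stand in overt ETP-ALL, a leukemia defined by an early T cell precursor phenotype. It was set against preleukemic cells of the same genotype and gate. Their level was estimated in the additive fit, in which all 12 non-leukemic arrays enter. Plcg1 and Cd8a fell, Lck and Zap70 did not pass the test, and no member rose. These 2 of 10 members compare with 2.48% of features called in either direction and 0.98% called lower. The 2 leukemias had a slide of their own, so slide and leukemia cannot be told apart.

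Plcg1 read -2.04 and -1.52 in the leukemias of mice 13 and 19, against 0.01 in double-deleted DN2 cells. The 12 non-leukemic arrays lay between -0.75 and 0.03, above both leukemias. The difference was -1.80 ± 0.26 (limma adjusted p = 0.00819), 3.47-fold, and a second Plcg1 probe gave -1.07 (limma adjusted p = 0.624). Cd8a was not well above background in either leukemia, with -5.21 and -4.98 against -2.63 in double-deleted DN2 cells. Against the lowest signals well above background on the leukemia arrays, Cd8a was at least 1.62-fold lower in the leukemias than in double-deleted DN2 cells. By its second probe it was at least 1.55-fold lower. The fit, which used the dim values as they were, gave -2.72 ± 0.42 (limma adjusted p = 0.0116). For the second probe the fit gave -1.75, which was not called (limma adjusted p = 0.0703). With normexp background correction Cd8a was not called (limma adjusted p = 0.120). Without the double-deleted DN2 array neither gene was called (limma adjusted p = 0.0787 for Plcg1 and 0.0629 for Cd8a).

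Cd5, Cd6 and Cd28 were also below all 12 non-leukemic arrays in both leukemias, without passing the test against double-deleted DN2 cells. By their values 5 of 10 members, Plcg1 and Cd8a included, did not overlap, against 4.03% of features lower in both leukemias than on all 12 other arrays. Cd8a has no readable order against the Ezh2-deleted DN2 and DN3 arrays, which were not well above background either. Cd5 read 1.58 and 2.23, against 3.53 in double-deleted DN2 cells and 2.77 to 6.90 on the non-leukemic arrays (difference -1.50 ± 0.40, limma adjusted p = 0.0920). Cd6 read 1.70 and 2.54, against 3.33 in double-deleted DN2 cells and 3.24 to 6.52 on the non-leukemic arrays (-1.31 ± 0.41, limma adjusted p = 0.137). Cd28 read 2.56 and 2.77, against 3.43 in double-deleted DN2 cells and 2.97 to 6.23 over the 12 (-0.57 ± 0.29, limma adjusted p = 0.325).

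Cd8b1 read -2.77 and -4.44, the second not well above background, against -1.19 in double-deleted DN2 cells (-2.36 ± 0.58, limma adjusted p = 0.0699). Cd4 was 2.05 and 2.23 in the leukemias and 2.11 in double-deleted DN2 cells, a difference of 0.12 ± 0.28 (limma adjusted p = 0.859). Lck was 7.55 and 8.64 against 7.87, and Zap70 was 5.46 and 4.71 against 5.19. Prkcq differed between the leukemias, at 4.74 in mouse 13 and 2.06 in mouse 19, against 2.41 in double-deleted DN2 cells. The mouse 13 value is near the DN1 values of 3.96 to 4.85, and the mouse 19 value is at the lower end of the DN2 and DN3 values.

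**Figure D5:**
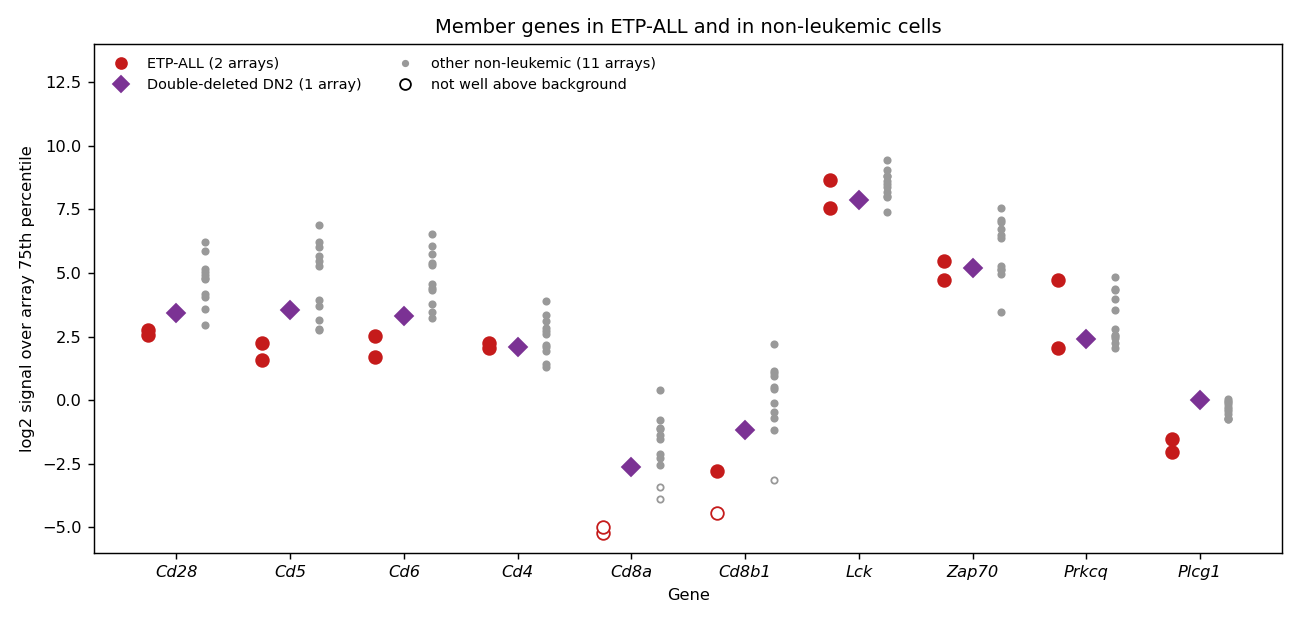
Level of each member (log2 of signal over the array's 75th percentile) in the 2 ETP-ALL arrays (red), the double-deleted DN2 array (purple) and the other 11 non-leukemic arrays (grey); open symbols were not well above background. The leukemias lie below all 12 non-leukemic arrays for Cd28, Cd5, Cd6 and Plcg1, and Prkcq is spread between 2.06 and 4.74.

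Around the members, Ptcra, the pre-TCR alpha chain gene, fell by 6.29 on the log2 scale in the leukemias (limma adjusted p = 0.0287), the 1 called gene of the 5 CD3 and pre-TCR chains. It read -4.68 and -1.51 in the leukemias of mice 13 and 19, the first of them not well above background, against 2.88 in double-deleted DN2 cells. Without the mouse 13 array the difference was -4.71 and not called (limma adjusted p = 0.114), and the call was lost in 7 of 14 fits that left out 1 array. Fgr, a SRC family kinase gene of myeloid and NK cells, rose by 2.30 on the log2 scale (limma adjusted p = 0.0107), 1 of 13 kinase and lipase paralogues tested. Of the 26 adaptors and enzymes none was called by limma and 4 had an unadjusted p under 0.05, and their median difference was 0.19, against -0.01 over all features. NK markers were well above background for 7 of 17 genes in both leukemias, with Eomes among them and Ncr1 and Klrd1 not. Their summed level was 1024 and 1057 in the leukemias of mice 13 and 19, against 252 in double-deleted DN2 cells. It was 676 to 1346 on the DN1 arrays, where all 17 markers were well above background. The sum did not follow that count, since the Ezh2-deleted DN3 array reached 684 with 4 of 17 well above background. The median log2 level of these markers was -4.94 and -4.05 in the leukemias of mice 13 and 19. It was -3.75 in double-deleted DN2 cells and at least 1.54 on the DN1 arrays, so by the median the leukemias were not near DN1. In the fit, 11 of the 17 markers were higher and 6 lower in the leukemias than in double-deleted DN2 cells. Their median difference was 0.23, and none was called by limma.

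Over the 12 non-leukemic arrays the members fell into loose sets by the likeness of their levels, given as Pearson's r as a description, since these arrays share stages, genotypes and slides. Cd28 and Cd8b1 had r = 0.922 and Cd4 and Cd8b1 r = 0.908, while Cd6 and Prkcq had r = 0.934 and Cd5 and Zap70 r = 0.898. Cd8a and Cd8b1, neighbouring genes on chromosome 6, had r = 0.778, and Cd5 and Cd6, on chromosome 19 with 1 listed gene between them, had r = 0.884. Lck was apart, with r between -0.69 (Plcg1) and 0.06 (Cd6). Among the other named genes, those most like Cd5 were Izumo1r (0.972), Hdac5 (0.971) and Fyn (0.970). Ptprc (0.975) and Tafa3 (0.969) were among those most like Cd6, and for Prkcq they were Eomes (0.971), Txk (0.970) and Galnt6 (0.969). Cd28, Cd4 and Cd8b1 each had Chkb among their 3 closest genes, at 0.872, 0.870 and 0.921. Zap70 was most like Ablim1 (0.969), Lck like Dnajc7 (0.963), Cd8a like Pnrc2 (0.939) and Plcg1 like Fam71a (0.902).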

How the data were processed

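The members and gene lists were chosen with earlier results of these data known. Per the labels' protocols, 20 ng of total RNA was labelled. The authors, per the file headers, read the arrays with Feature Extraction 10.7.1.1, which gave each spot a deposited background-subtracted processed intensity. The authors' deposited signal table holds the same values divided by 1 constant per array (linear, uncentred, direction not applicable to 1 colour), and was an alternative.

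Here, log2 intensity minus the array's 75th percentile was used, with control and outlier spots left out, spots of a probe averaged, and the probe of highest mean kept per gene. The files name probes by accession, of which 27656 matched 1 RefSeq symbol (GRCm38.p6). Probes well above background on at least 2 of 14 arrays gave 27052 features. The model was additive in genotype and stage and was fitted with limma 3.58.1 in R 4.3.3 (lmFit, eBayes, Benjamini-Hochberg over all features of a comparison, threshold 0.05). The 12 non-leukemic arrays left 6 residual degrees of freedom, and the leukemia fit of all 14 left 7. In the leukemia fit the difference between the 2 leukemia arrays enters the errors. With 1 array per genotype and stage, errors and p-values otherwise rest on how far the non-leukemic arrays depart from the additive fit, not on replicates. Such departures can hold technical and slide differences and stage steps that differ between genotypes. The labels do not say that stages came from separate mice. Precision is limited by the number of arrays. Of probes, 40.3% to 50.4% were well above background on each array. "At least N-fold" sets the brighter group's mean against the mean, per dim array, of the higher of its lowest signal well above background and the probe's own signal.

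Named genes were the 10 members, the called genes of largest change in each pathway list (up to 6), and the 3 genes most like each member. An item that these rules would name is not reported here. The normexp alternative used the median intensity of spot and background, with offset 50. The labels place the cells in the thymus in one field and in the bone marrow in another, and the thymus was followed. The fits were checked on simulated data.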

Additional observations from a re-analysis of the deposited data

Results flagged for a closer look

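Over 15 member probes and 3 stages, 45 groups of 4 arrays were checked for an array far from the other 3, and 4 stood apart by the criterion of Dixon's test for 4 values. Chance gives about 1 in 20 groups. Among the DN1 arrays, the dimmer Plcg1 probe read 0.44 in double-deleted cells, against -2.66 on the next array. The brighter Plcg1 probe read -0.36 there, within the range of the other DN1 arrays, so the 2 probes disagree on that array. Among the DN2 arrays, the brighter Plcg1 probe read -0.44 in Ezh2-deleted cells, against -0.04 on the next array. Among the DN3 arrays, the second Zap70 probe read 4.82 in p53-deleted cells, against 3.74 on the next, and the second Cd6 probe read -1.37 in double-deleted cells, below the other 3.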

How the results depend on the processing

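No paired analysis was possible because the non-leukemic arrays carry a single replicate number; the additive fit itself compared stages within genotypes. A slide block could not be fitted to Ezh2-deleted or p53-deleted against WT cells. Over 144 gene differences, 2141 of 2837 refitted values kept direction and side of the threshold, 660 lost the call, 36 gained it and none changed direction. The counts were less stable.

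At DN2 against DN1, 378 features and 5 members were called. Members came to 3 without the filter on dim probes, 1 with the slide as a block, and 0 within slide 1, within slide 2 (5 features) and without the 6 arrays of slide 2, an alternative chosen after seeing the data. Leaving out single arrays gave 145 to 2586 features and 0 to 7 members. At DN3 against DN2, 6 features became 0 within slide 1 or slide 2, 1 without slide 2 and 2 to 13 without single arrays, with 0 members throughout. At DN3 against DN1, 2087 features and 5 members became 1334 features without the filter, 1166 and 3 with the slide block, 990 and 1 within slide 1, 50 and 0 within slide 2, 634 and 2 without slide 2, and 679 to 5362 and 3 to 6 without single arrays.

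In Ezh2-deleted against WT cells 5 members became 3 with normexp background correction, and 6366 to 10168 features and 3 to 8 members were called without single arrays (9561 features with all). Normexp split its calls into 10225 higher and 3538 lower, and a percentile over detected probes into 3190 and 5421, against 4747 and 4814. In p53-deleted against WT cells (9877 features) 3 members became 1 with the percentile over detected probes or without the filter and 5 with every probe as its own feature, and 6936 to 9585 features and 1 to 3 members without single arrays. Normexp gave 8392 higher and 3809 lower, against 4506 and 5371.

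In double-deleted against WT cells 1948 features and 1 member became 9897 and 4 with normexp, 1162 features with the percentile over detected probes, and 593, 351 and 675 features with 0 members under the slide block, within slide 1 and without slide 2. Without single arrays the counts were 424 to 2008 and 0 to 2. Normexp gave 1799 higher and 8098 lower and the other percentile 779 and 383, against 1007 and 941. In Ezh2-deleted against p53-deleted cells 1077 features and 4 members became 337 features with normexp, 92 and 0 within slide 2, and 288 to 1144 and 2 to 4 without single arrays.

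For ETP-ALL, 670 features and 2 members became 1545 features with normexp, 1220 and 4 with the slide as a random block, and 110 to 845 and 0 to 3 without single arrays, the lowest without double-deleted DN2.

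For Ezh2 loss, 1067 features and 4 members became 629 features with the slide block, and 583 to 1427 and 3 to 5 without single arrays. For p53 loss, 2141 features and 1 member became 7298 and 3 with normexp, 1244 and 0 with the percentile over detected probes, 869 and 0 with the slide block, 0 members with quantile normalization or without the filter, and 425 to 1854 and 0 to 1 without single arrays. Normexp gave 1125 higher and 6173 lower and the other percentile 674 and 570, against 845 and 1296. Fewer arrays enter the fits within slides and without single arrays, and for the other changes the cause was not tested. Dim probes limit Cd8a, Cd8b1 and the second Cd4 probe, which were not well above background on every array.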
